A study of Rattus norvegicus with 29 samples.

Results

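The AMPA receptor subunit genes Gria1, Gria2, Gria3 and Gria4 and the kainate receptor subunit genes Grik1, Grik2, Grik3, Grik4 and Grik5 were followed on arrays of the accumbens shell, a ventral striatal region, from the alcohol-preferring P line of rats. Every probe set whose only symbol in the platform table was one of these 9 genes was taken, which gave 13 of the 31099 probe sets on the array, 8 for AMPA and 5 for kainate subunits, and 9 of the 14218 genes with a probe set of their own. This line was bred selectively for voluntary ethanol drinking. Rats had continuous ethanol (10 arrays), limited access to ethanol (10 arrays) or water only (9 arrays), and all groups were of this line. The design text names 10 samples in each group, and 1 water sample was not analysed here. The age and sex of the rats, the hours of access, the amounts drunk and whether each array came from 1 animal were not stated in the labels, so the p-values measure the spread between arrays, which may in part be technical.

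AMPA and kainate receptors are tetrameric glutamate-gated ion channels. AMPA receptors, built of the GluA subunits that the Gria genes encode, carry most fast excitatory transmission onto the medium spiny neurons of the accumbens, whose glutamate comes from cortex, hippocampus, amygdala and thalamus. The GluA2 subunit, made from Gria2 and edited in its pore by the RNA-editing enzyme encoded by Adarb1, keeps calcium from passing, and the share of receptors lacking it is known to change in the accumbens after repeated exposure to drugs such as cocaine. Kainate receptors are built of the low-affinity subunits encoded by Grik1, Grik2 and Grik3, which form channels by themselves, and the high-affinity subunits of Grik4 and Grik5, which need one of the former; they act on both sides of the synapse.

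The deposited values are log2 expression values per probe set. Array medians lay between 8.17 and 8.21, pairs of arrays correlated at 0.986 to 0.998 over all probe sets, and 0 pairs were identical. Of 10 medium spiny neuron markers 9 were on the array with a single symbol, and their means over all arrays ran from 9.61 (Gpr6) to 13.54 (Penk), so the defining genes of the labelled tissue were measured in all groups. Markers of cortical excitatory neurons were measured too (5 of 6 tested, among them Slc17a7 and Neurod2). Their score, the log2 distance of each marker from its mean over the 29 arrays, averaged over markers, ran from -0.34 to 0.12 in water, -0.14 to 0.23 in limited and -0.24 to 0.22 in continuous arrays. In bulk tissue, fewer cells of a type and less RNA per cell cannot be told apart. The dimmest 30 percent of probe sets, with a mean at or below 6.86, were not tested. This left 11 of the 13 probe sets and 8 of the 9 genes. Grik1 lay just inside that limit at 6.88 and the third probe set of Gria4 just outside at 6.62, with Grik3 at 6.23. The mean of Grik1 was 6.79 in water, below the limit, and 6.97 in continuous arrays. Its being tested thus depended on the group where it was high.

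No tested AMPA or kainate subunit differed between any of the groups at the threshold of an adjusted p of 0.05. The test was that of limma, with Benjamini-Hochberg adjustment over the 21729 probe sets tested. Between continuous ethanol and water, 0 of 11 probe sets passed, where 0.152% of all tested probe sets did (0.0874% higher and 0.0644% lower with ethanol). Between limited access and water, 0 of 11 passed, as did 0% of all, and between limited and continuous access 0 of 11 passed, against 0.00460% of all. At an unadjusted p under 0.05 there was 1 member of 11 in continuous against water (Grik1, higher), where 16.1% of all probe sets reached it, 9.62% higher and 6.48% lower. There was 0 in limited against water, where 4.44% did, 2.10% higher and 2.34% lower. In limited against continuous there was 1 (the second probe set of Gria4, lower), where 9.31% did, 3.56% higher and 5.74% lower. The moderated F test over the 3 groups called 0 of 11 (0.0828% of all), with a smallest adjusted p of 0.480 at Grik1; at an unadjusted p under 0.05 it had 0 of 11 and 11.6% of all. In every comparison the values of the groups compared overlapped for all 11 probe sets, whereas 0.0322%, 0.00460% and 0% of all tested probe sets did not overlap in the same order of comparisons.

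The size of the differences was bounded by these arrays. For continuous against water the estimates ran from -0.07 (Grik5) to 0.18 (Grik1) on the log2 scale, and the highest upper 95% confidence bound was 0.38, or 1.30-fold, for the first probe set of Gria2. The lowest lower bound in that comparison was -0.20 for Grik5, or 0.869-fold. The median difference of the 11 probe sets was 0.09, with 10 above zero, beside a median of 0.00 and 52.5% above zero over all tested probe sets. For limited access against water it was 0.05, with 8 above zero, beside 0.00 and 50.5%. For limited against continuous access it was -0.04, with 10 below zero, beside -0.01 and 46.6% above zero. Both ethanol groups were set against the same water arrays, several genes have more than 1 probe set, and the members co-varied in part as given below, so these counts are not independent of each other.

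**Figure D1:**
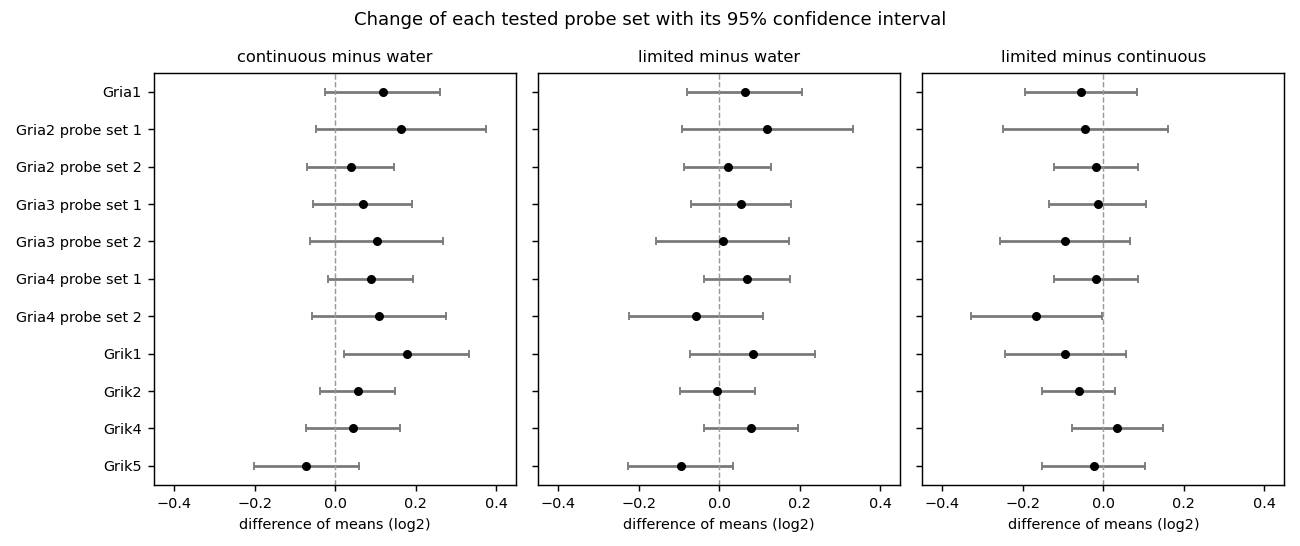
Difference of group means on the log2 scale (x axis) with its 95% confidence interval for the 11 tested probe sets (y axis), in 1 panel for each comparison. Estimates lay between -0.07 and 0.18 for continuous minus water, and the intervals of Grik1 there and of the second Gria4 probe set in limited minus continuous were those that left out zero, before adjustment over all probe sets.

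Gria1 encodes GluA1, the AMPA subunit delivered to synapses in long-term potentiation. Its values ran from 9.40 through a median of 9.60 to 9.91 in water, from 9.43 through 9.76 to 9.90 in limited and from 9.59 through 9.77 to 9.99 in continuous arrays. The groups overlapped over most of their range, and water replicates 2, 6 and 7 with limited replicate 7 were the lowest arrays. The group means were 9.65 ± 0.21 (SD, n = 9), 9.72 ± 0.14 (n = 10) and 9.77 ± 0.12 (n = 10). Continuous minus water was 0.12 ± 0.07 (SE, 95% interval -0.02 to 0.26, limma adjusted p = 0.400, 8 of 10 arrays above the water mean). Limited minus water was 0.06 ± 0.07 (adjusted p = 0.972). The latter was 0.03 without water replicate 7 or 2 and 0.04 without water replicate 6. Without water replicate 5, the highest water array, it rose to 0.10. Continuous minus water was then 0.15 ± 0.07 (unadjusted p = 0.0394, adjusted p = 0.351).

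Gria2, which sets the calcium permeability of the receptor, was read by a pair of probe sets. The first ran from 12.28 through a median of 12.95 to 13.28 in water, from 12.84 through 12.96 to 13.26 in limited and from 12.76 through 13.08 to 13.37 in continuous arrays. Water replicates 7 and 9, at 12.28 and 12.33, lay below every other array, and all other water values fell within the range of the ethanol groups. Continuous minus water was 0.16 ± 0.10 (95% interval -0.05 to 0.38, adjusted p = 0.430). It was 0.09 without water replicate 7 and 0.09 without water replicate 9, so each of these arrays moved the estimate by more than 1.5 times. Limited minus water was 0.12 ± 0.10 (adjusted p = 0.972), and 0.04 and 0.05 without the same arrays. Without water replicate 5, the highest water array, the differences rose instead. Continuous minus water was then 0.21 ± 0.10 (unadjusted p = 0.0474, adjusted p = 0.366) and limited minus water 0.17 ± 0.10. The second Gria2 probe set had water, limited and continuous means of 12.80 ± 0.14, 12.82 ± 0.06 and 12.84 ± 0.14, with differences from water of 0.04 ± 0.05 (95% interval -0.07 to 0.15) for continuous and 0.02 ± 0.05 (95% interval -0.09 to 0.13) for limited access. On this probe set water replicate 9 was the highest water array.

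Gria3, whose GluA3 subunit pairs with GluA2 in receptors that cycle constitutively, gave 12.15 ± 0.13, 12.20 ± 0.06 and 12.22 ± 0.18 (SD) in water, limited and continuous arrays on its first probe set. On the second the means were 8.94 ± 0.18, 8.95 ± 0.17 and 9.04 ± 0.20. Groups overlapped almost wholly on both. Continuous minus water was 0.07 ± 0.06 and 0.10 ± 0.08 in that order (adjusted p = 0.587 and 0.532), and limited minus water 0.05 ± 0.06 and 0.01 ± 0.08 (adjusted p = 0.972 and 0.995). Continuous replicate 7, at 11.81, was the lowest array on the first probe set, and without it continuous minus water there was 0.11 ± 0.05 (adjusted p = 0.249); without water replicate 7, the next lowest, it was 0.04 ± 0.06.

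Gria4 encodes GluA4, a subunit of fast receptors that is typical of parvalbumin interneurons. Its first probe set had means of 10.83 ± 0.16, 10.90 ± 0.08 and 10.92 ± 0.09 in water, limited and continuous arrays, and continuous minus water was 0.09 ± 0.05 (95% interval -0.02 to 0.19, adjusted p = 0.402, 9 of 10 arrays above the water mean), or 0.05 without water replicate 6. The second ran from 8.45 through 8.65 to 8.94 in water, from 8.15 through 8.70 to 8.80 in limited and from 8.64 through 8.72 to 9.04 in continuous arrays. Limited replicates 6 and 7, at 8.18 and 8.15, lay below all other arrays. Limited minus continuous was -0.17 ± 0.08 on this probe set (95% interval -0.33 to -0.00, unadjusted p = 0.0443, adjusted p = 0.534, 8 of 10 limited arrays below the continuous mean). Those 2 and water replicates 2, 5 and 6 separated from all other arrays on the second principal component. With these 5 left out limited minus continuous on this probe set was -0.05 ± 0.05. Continuous minus water was then 0.01 ± 0.04 on the first probe set, in place of 0.09. On the second it was 0.03 ± 0.06, in place of 0.11. The third Gria4 probe set, below the filter, had means of 6.63 ± 0.10, 6.59 ± 0.17 and 6.63 ± 0.10.

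**Figure D2:**
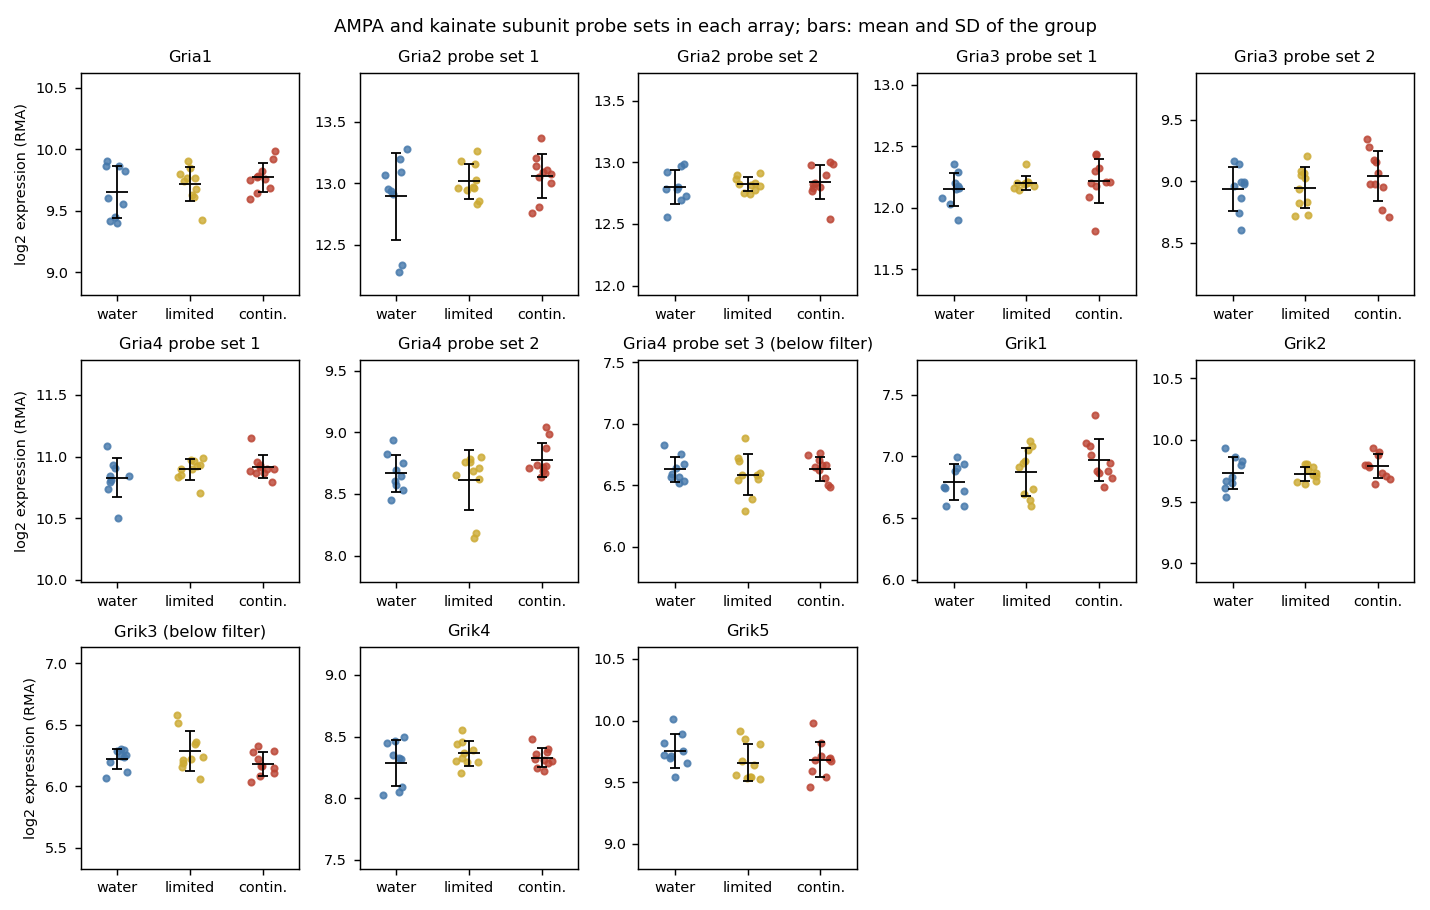
Log2 expression (y axis) of the 13 AMPA and kainate subunit probe sets in every water, limited and continuous array (points), with the mean and SD of each group (bars); every panel spans the same height. Groups overlap in all panels, water replicates 7 and 9 lie low on the first Gria2 probe set and limited replicates 6 and 7 on the second Gria4 probe set.

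Among the kainate subunits, Grik1, which encodes GluK1, ran from 6.60 through a median of 6.75 to 6.99 in water, from 6.60 through 6.93 to 7.12 in limited and from 6.75 through 6.91 to 7.34 in continuous arrays. Its water mean of 6.79 was below the filter limit of 6.86, so it entered the tests through its higher values with ethanol. Its highest array was continuous replicate 3, and the rest of the continuous group lay at or below 7.11. Continuous minus water was 0.18 ± 0.08 (SE, 1.13-fold, 95% interval 0.02 to 0.33), which did not pass after adjustment (unadjusted p = 0.0265, adjusted p = 0.251, 9 of 10 arrays above the water mean). Without that 1 array it was 0.14 ± 0.07 (unadjusted p = 0.0663, adjusted p = 0.380). Limited minus water was 0.08 ± 0.08 (adjusted p = 0.972). With the 5 arrays apart on the second component left out, the differences from water were 0.20 ± 0.08 for continuous (adjusted p = 0.434) and 0.17 ± 0.08 for limited access (adjusted p = 0.957). The beta-actin and GAPDH controls gave a 3 prime minus 5 prime signal, which tracks how intact the labelled RNA is, of 0.534 ± 0.030 (SD) in water, 0.504 ± 0.047 in limited and 0.566 ± 0.059 in continuous arrays. Grik1 went with it across arrays, as given below, and with that measure as a covariate continuous minus water was 0.11 ± 0.07 (adjusted p = 0.479) and limited minus water 0.14 ± 0.07 (unadjusted p = 0.0407, adjusted p = 0.973).

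Grik2, the gene of GluK2, was the least variable of the tested members, with a residual SD of 0.0982 around the group means beside a median of 0.118 over all tested probe sets. It measured 9.73 ± 0.13 in water, 9.73 ± 0.06 in limited and 9.79 ± 0.10 in continuous arrays, and its continuous minus water interval of -0.04 to 0.15 was the narrowest among the members. Grik4 (GluK4) measured 8.28 ± 0.18, 8.36 ± 0.10 and 8.33 ± 0.08 in the same order, with a difference from water of 0.04 ± 0.06 for continuous (adjusted p = 0.730) and 0.08 ± 0.06 for limited access (adjusted p = 0.972). With the 3 prime minus 5 prime covariate these were 0.01 ± 0.05 and 0.12 ± 0.05 (unadjusted p = 0.0433 and adjusted p = 0.973 for the latter). Grik5 (GluK5) was the member whose mean was highest in water, at 9.76 ± 0.14, against 9.66 ± 0.15 in limited and 9.68 ± 0.14 in continuous arrays, with differences of -0.10 ± 0.06 (adjusted p = 0.972) and -0.07 ± 0.06 (adjusted p = 0.591) that did not pass; the latter was -0.04 without water replicate 9, the highest array. Grik3 (GluK3), below the filter, had means of 6.22 ± 0.08, 6.29 ± 0.16 and 6.18 ± 0.10. In a fit without the filter its differences from water were 0.07 ± 0.05 for limited and -0.04 ± 0.05 for continuous access (adjusted p = 0.989 and 0.745). Its limited minus continuous difference in that fit was 0.105 ± 0.053 (unadjusted p = 0.0561, adjusted p = 0.536).

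The order of the group means was continuous above limited above water for 7 of the 11 tested probe sets (24.7% of all tested probe sets): those of Gria1, Gria2, Gria3 and Grik1 and the first of Gria4. The second Gria4 probe set and Grik2 had continuous highest and limited lowest, Grik4 had limited highest, and Grik5 had water highest. Neighbours in these orders did not differ beyond the spread between arrays in any of the tests above. The residual SD was highest for the first Gria2 probe set, at 0.237, which exceeded that of 93.1% of all tested probe sets. The SD was largest in water for 6 of 11 members (43.4% of all tested probe sets). Continuous replicate 3 was the highest array of its group on 7 of the 11 probe sets, with no share over all tested probe sets taken beside it. It was also the lowest of all arrays on the first principal component, at -17.5, and on leptomeningeal markers, with a score of -1.53 where the next lowest array had -0.42. The part of either in its subunit values was not tested. Without this array continuous minus water shrank to 0.021 for the second probe set of Gria2 and 0.044 for the first of Gria3. It shrank to 0.070 for the second of Gria3 and 0.039 for Grik2. Leaving out a water array shrank each of these further. The values were 0.0076 and 0.032 for the second of Gria2 and Grik2 without water replicate 2. They were 0.037 for the first of Gria3 without water replicate 7 and 0.062 for the second without water replicate 6.

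Partners of these receptors were taken as 41 genes in fixed lists, of which 31 were tested on their brightest probe set. Of 14 tested AMPA auxiliary subunits, 12 trafficking and anchoring genes, 3 kainate partners and 2 editing enzymes, 0 passed in any comparison. At an unadjusted p under 0.05 there were 4 of 31 in continuous against water, 2 in limited against water and 2 in limited against continuous, where 16.1%, 4.44% and 9.31% of all tested probe sets reached it. Their median differences were 0.00, 0.00 and 0.01 in that order. The delta receptor genes, a related family, had no tested probe set.

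Dlg1, which encodes the SAP97 scaffold that binds the tail of GluA1, had the smallest p of the lists in both comparisons with water. It ran from 11.74 through 11.80 to 11.92 in water, from 11.66 through 11.71 to 11.78 in limited and from 11.57 through 11.69 to 11.79 in continuous arrays. The groups overlapped at their edges, and 10 of 10 arrays of each ethanol group lay below the water mean. Continuous minus water was -0.12 ± 0.03 (unadjusted p = 6.06e-04, adjusted p = 0.125) and limited minus water -0.10 ± 0.03 (adjusted p = 0.971). A dimmer Dlg1 probe set gave -0.09 ± 0.06 and -0.08 ± 0.06 (limma unadjusted p = 0.143 and 0.204). Both comparisons used the same water arrays, so they are not independent of each other. Cacng7, which encodes a transmembrane AMPA receptor regulatory protein, had means of 7.08 ± 0.17, 7.17 ± 0.22 and 6.89 ± 0.15 in water, limited and continuous arrays. Its limited minus continuous difference was 0.29 ± 0.08 (unadjusted p = 0.00105, adjusted p = 0.526, 10 of 10 limited arrays above the continuous mean) and its continuous minus water difference -0.19 ± 0.08 (adjusted p = 0.242). Cpt1c, an enzyme of the endoplasmic reticulum that takes part in GluA1 trafficking, had a continuous minus water difference of -0.13 ± 0.04 (adjusted p = 0.191) and a limited minus continuous difference of 0.09 ± 0.04 (adjusted p = 0.536).

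Among the others of smallest p, Grip1, a PDZ scaffold of GluA2 and GluA3, had a limited minus water difference of 0.12 ± 0.06 (adjusted p = 0.972) on its brighter probe set and 0.07 ± 0.08 on the other. The auxiliary subunit gene Gsg1l differed by -0.07 ± 0.04 between limited and water (adjusted p = 0.972). Grip2, a relative of Grip1, differed by -0.13 ± 0.07 between limited and continuous arrays (adjusted p = 0.546), while a dimmer probe set had the opposite sign (0.05 ± 0.06). The editing enzyme genes Adarb1 and Adar had continuous minus water differences of -0.00 and -0.05.

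**Figure D3:**
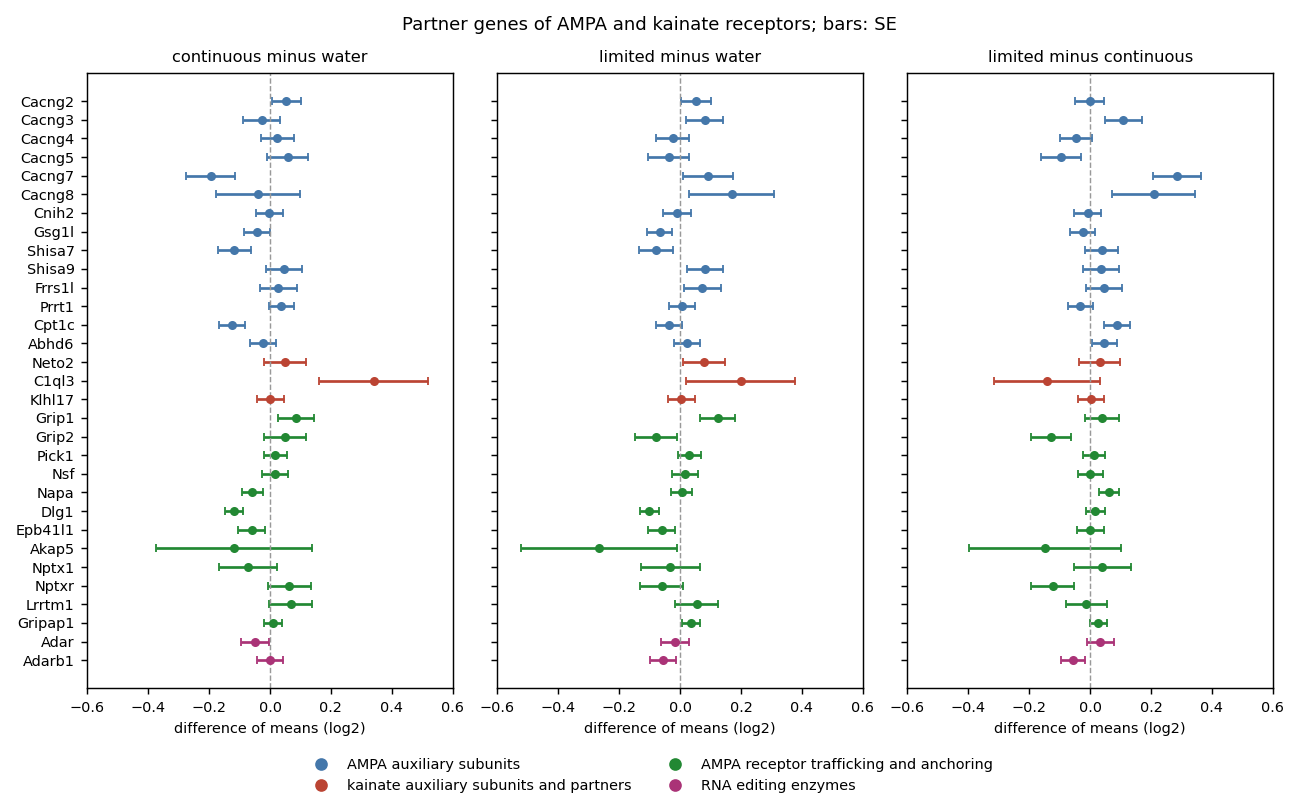
Difference of group means (x axis, log2) with its SE for the 31 tested partner genes (y axis), coloured by list, in 1 panel for each comparison. None passed after adjustment. Dlg1 lay below zero in both comparisons with water, which share the water arrays, and C1ql3 and Akap5 had the widest errors.

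Across the 29 arrays, 1 of the 28 pairs of member genes passed after adjustment over the pairs, each gene being read on its brightest tested probe set. Gria1 and Gria2 varied together (Pearson r = 0.72, Spearman rho = 0.85, permutation p = 1e-05 for both, the smallest that 100000 resamples can give, adjusted p = 2.80e-04). Without the 2 arrays farthest from the median of Gria1 r was 0.69 (permutation p = 7e-05), and on deviations from the group means it was 0.70. Within the groups r was 0.71 in water, 0.51 in limited and 0.91 in continuous arrays. The other 27 pairs had r between -0.36 and 0.41. The probe sets of 1 gene did not always follow each other: r was 0.65 for Gria3 (rho = 0.69, permutation p = 7e-05, adjusted over the 3 genes 2.10e-04), 0.54 for Gria4 (rho = 0.53, p = 0.00418, adjusted 0.00627) and 0.04 for Gria2 (rho = 0.10, p = 0.839). Without the 2 farthest arrays these were 0.63, 0.50 and 0.16, and with those 5 arrays left out 0.73, 0.34 and 0.05. With the second Gria2 probe set, r between Gria1 and Gria2 was 0.19 (permutation p = 0.331). The platform table does not place the probes within the transcripts, so which isoforms or ends each probe set reads was not examined.

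**Figure D4:**
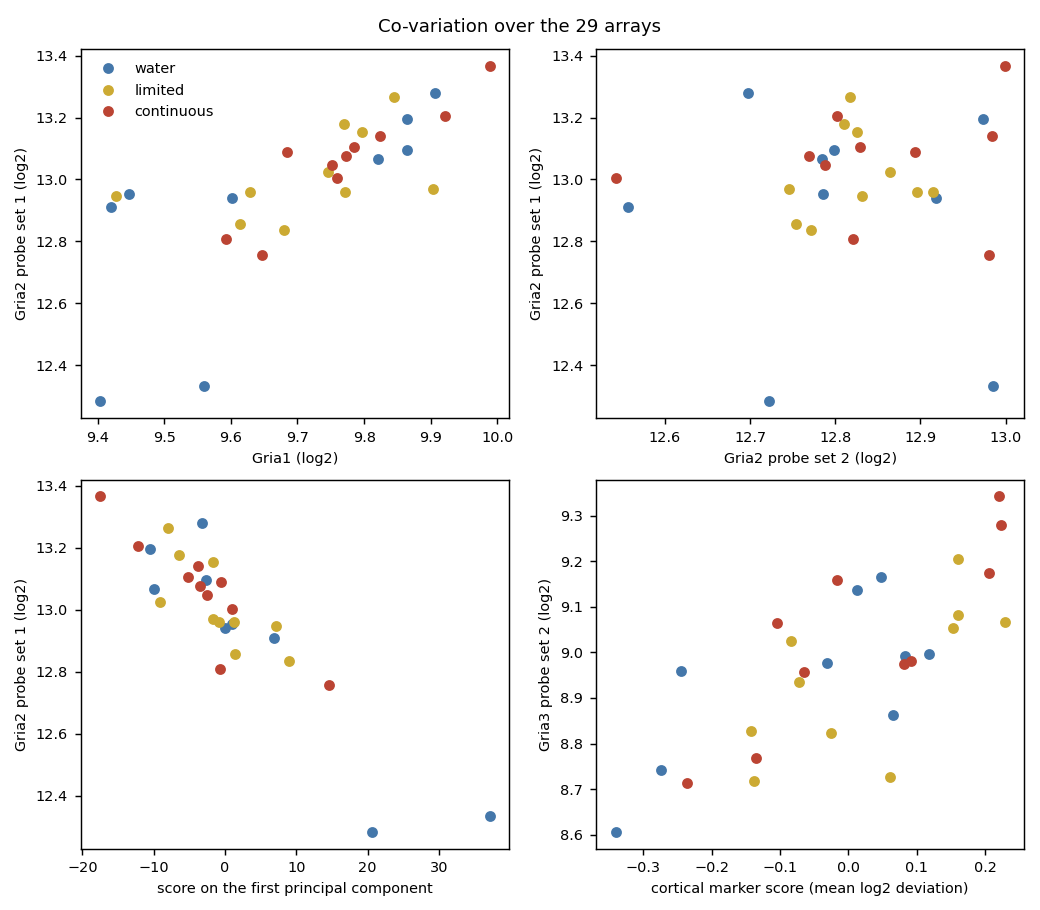
Each point is 1 of the 29 arrays, coloured by group. The first Gria2 probe set tracks Gria1 (upper left, r = 0.72), not with the second Gria2 probe set (upper right, r = 0.04), and goes against the first principal component of the arrays (lower left, r = -0.90), where water replicates 7 and 9 lie far right; the second Gria3 probe set tracks the cortical marker score (lower right, r = 0.74). All expression axes are log2.

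The members were set beside 7 measures of the arrays, which made 77 relations, of which 14 passed after adjustment by Pearson's r. They included the first principal component, the axis along which arrays differed most over all tested probe sets (20.3% of the variance; its sign is arbitrary, and the members are among the probe sets it is built from). The first Gria2 probe set had r = -0.90 with it (rho = -0.87, permutation p = 1e-05, adjusted p = 1.93e-04, r = -0.81 without the 2 farthest arrays). Gria1 had r = -0.67 (rho = -0.79, p = 8e-05, adjusted p = 0.00116, -0.70 without them). Water replicates 9 and 7 were the extremes of that component, at 37.1 and 20.6 against -17.5 to 14.7 for the rest. After the component was taken out of both, r between Gria1 and Gria2 was 0.37 (permutation p = 0.0485, adjusted p = 0.281), and with the component as a covariate continuous minus water was 0.02 ± 0.05 for the first Gria2 probe set and 0.05 ± 0.06 for Gria1.

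Gria3 went with the cortical marker score. Its probe sets had r = 0.67 (rho = 0.71, permutation p = 9e-05, adjusted p = 0.00116) and r = 0.74 (rho = 0.73, p = 1e-05, adjusted p = 1.93e-04), or 0.65 and 0.65 without the 2 farthest arrays and 0.65 and 0.75 on deviations from the group means. The cortical score had means of -0.06 ± 0.18 (SD), 0.03 ± 0.14 and 0.03 ± 0.16 in water, limited and continuous arrays. With that score as a covariate continuous minus water was 0.02 ± 0.05 and 0.03 ± 0.06 for the first and second Gria3 probe sets, and limited minus water 0.00 ± 0.05 and -0.07 ± 0.06. Gria4 went with the second principal component (16.5% of the variance), at r = 0.75 (rho = 0.63) and 0.79 (rho = 0.61) for its brighter probe sets (permutation p = 1e-05 and adjusted p = 1.93e-04 for both), and at 0.57 and 0.50 with the same 5 arrays left out. The second Gria2 probe set also did, at r = 0.60 (rho = 0.72, permutation p = 5.90e-04, adjusted p = 0.00649).

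Grik1 had r = 0.55 with the 3 prime minus 5 prime signal (rho = 0.50, permutation p = 0.00178, adjusted p = 0.0171) and 0.47 without the 2 farthest arrays (p = 0.0139). It also had r = -0.49 with the first component (rho = -0.33, p = 0.00676, adjusted p = 0.0400) and -0.39 without them. Leptomeningeal markers such as Igf2 and Ogn went against Gria1, the second probe sets of Gria2 and Gria3, and Grik2, with r from -0.52 to -0.47 (permutation p from 0.00341 to 0.00833, adjusted p from 0.0292 to 0.0458). Without the 2 farthest arrays that of Gria3 was -0.44 (p = 0.0214) and the others were -0.29, -0.28 and -0.17, so those 3 rested on these arrays, as did the relation of Grik4 to interneuron markers (r = 0.51, permutation p = 0.00500, adjusted p = 0.0350; 0.27 without the 2). By Spearman's rho none of these leptomeningeal relations passed (permutation test, adjusted p from 0.073 to 0.271), that of Gria3 included (rho = -0.46). The leptomeningeal score had means of 0.19 ± 0.33 (SD), -0.08 ± 0.31 and -0.10 ± 0.57 in water, limited and continuous arrays. Those of endothelial and mural markers were 0.09 ± 0.14, -0.01 ± 0.08 and -0.08 ± 0.09. The part of these 2 scores in the subunit values was not tested. By Spearman's rho, 8 of the 14 relations passed as well. Other relations passed by rho only (permutation test). The second Gria2 probe set did so with cortical markers (rho = 0.52, adjusted p = 0.0274). The second Gria3 probe set did so with interneuron markers (rho = -0.55, adjusted p = 0.0200). The first Gria3 probe set with the second component (rho = 0.55) and the second Gria4 probe set with the first (rho = -0.55) both had adjusted p = 0.0197. With the medium spiny neuron markers 0 of the 11 probe sets passed after adjustment (r from -0.25 to 0.40). The highest were Grik2 (r = 0.40, permutation p = 0.0320, adjusted p = 0.117) and Grik5 (r = 0.37, permutation p = 0.0473, adjusted p = 0.152). Without the 2 farthest arrays these were 0.16 and 0.41.

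**Figure D5:**
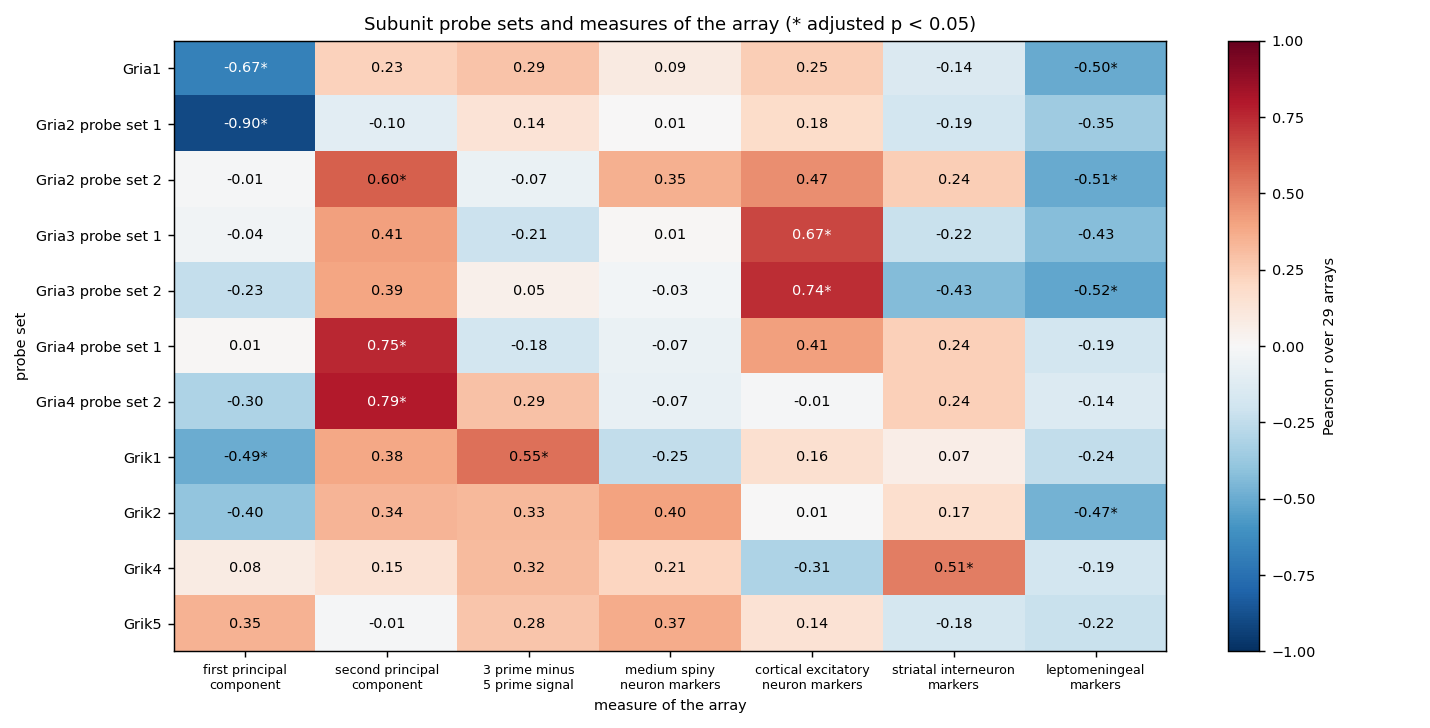
Pearson r over 29 arrays between each tested subunit probe set (rows) and 7 measures of the array (columns); colour runs from -1 (blue) to 1 (red) and an asterisk marks an adjusted p under 0.05. The strongest relations are those of Gria1 and the first Gria2 probe set with the first component, of Gria3 with cortical markers and of Gria4 with the second component; several AMPA probe sets also share the leptomeningeal column.

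The genes whose profile over the 29 arrays was most like that of a subunit were named by Pearson's r among 11327 other genes, each on its brightest tested probe set, as a description. Gria2 was thus read on its first probe set, which had r = 0.04 with its second. Most like the first were Kif5c, a kinesin heavy chain that moves cargo to dendrites (r = 0.94), the ephrin receptor gene Epha5 (0.93) and Lpgat1 (0.92). On deviations from the group means their r was 0.94, 0.94 and 0.92. Most like Gria1 were LRRTM1, a postsynaptic adhesion protein (0.75), Epha4 (0.74) and Rgs7bp (0.73), and Gria2 ranked 6 in that list. In the list of Gria2, by contrast, Gria1 ranked 158, and 95 genes had r above 0.8 with Gria2. Gria3 was most like Lmo3 (0.84), Dclk1 (0.84) and the potassium channel gene Kcnj3 (0.83), and Gria4 most like Cacul1 (0.86), Crbn (0.85) and Mrpl21 (0.84). No subunit other than Gria2 stood among the 10 genes most like any other member.

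Among kainate subunits the highest likeness was that of Grik5 to Fcho1 (0.83), Snph (0.82) and Adgrl1 (0.82). Grik1 was most like Zfp367 (0.77), Gpm6a (0.72) and Usp13 (0.70), Grik2 most like Cramp1 (0.71), Ralgapa1 (0.68) and Aarsd1 (0.67), and Grik4 most like Armcx2 (0.65), Abcd2 (0.65) and Nkx2-2 (0.64), with lower rank correlations of 0.40 and 0.38 for the first and last of these. The arrays share 1 normalization, and the number of genes compared is large, so high values of r are found for many genes: over all other genes the 95th percentile of r ran from 0.37 for Grik4 to 0.605 for Gria4.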

How the data were processed

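RNA of 29 samples was extracted with Trizol and RNeasy columns, and biotinylated cRNA was hybridised to Affymetrix rat arrays, per the labels' protocols. RMA (background correction, quantile normalization and summary of probes) gave the log2 values that the authors deposited, according to the submitters' processing notes; base 2 was inferred from their range. Software versions and array batches were not given in the sources used. Since RMA forces arrays to 1 distribution, a uniform shift of transcripts is invisible.

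Of 31099 probe sets, 57 controls and the dimmest 30 percent were left out. All 29 arrays entered 1 fit by group with lmFit and eBayes of limma 3.58.1 in R 4.3.3, tested two-sided with p-values adjusted by the Benjamini-Hochberg method over 21729 probe sets. Probe sets of a gene are numbered by brightness. Correlations used two-sided permutation tests with 100000 resamples (numpy 2.4.6). Marker and partner genes were read on their brightest tested probe set; symbols were matched without regard to case. The fit was tested on simulated data. The members, lists, naming rule and tests were chosen with earlier results of these data known. The rule named all members, the 3 partner genes of smallest p in each comparison and the 3 genes most like each member; C1ql3, Akap5, Adar and Adarb1 were singled out besides. Alternatives covered filters, scaling, priors, array weights, a replicate block, covariates, left-out arrays and the unit of testing.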

Additional observations from a re-analysis of the deposited data

Results flagged for a closer look

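Single arrays stood far from the rest of their group in 3 of the 39 groups formed by 13 probe sets and 3 treatments, by the gap to the nearest array relative to the range of the group. Chance gives about 1 in 20, or 1.95 of 39. The second Gria2 probe set was 12.54 in continuous replicate 7, where the next lowest continuous array was 12.77; without it continuous minus water was 0.07 ± 0.05 (SE, limma adjusted p = 0.436) in place of 0.04. The first Gria3 probe set was 12.36 in limited replicate 5, where the next highest limited array was 12.21; without it limited minus water was 0.04 ± 0.06 in place of 0.05. The first Gria4 probe set was 11.15 in continuous replicate 4, where the next was 10.95; without it continuous minus water was 0.06 ± 0.05 in place of 0.09, and limited minus continuous 0.01 in place of -0.02.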

How the results depend on the processing

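With 13 alternatives and with each of the 29 arrays left out in turn, 0 member probe sets passed in any comparison or in the F test, which was not run for the fit of only the groups compared. The smallest adjusted p over the alternatives was 0.216 for continuous against water, 0.935 for limited against water and 0.443 for limited against continuous, and over left-out arrays 0.154, 0.839 and 0.364. Whether the replicate numbers pair the arrays was not tested. On deviations from the group means, 12 of 28 same-numbered pairs correlated above 0.1, from -0.243 to 0.343. In 4 of the 28 the best match in the other group bore the same number. With the number as a block 0 passed. The first component and cortical markers as covariates, and the settings of the F test and of the gene pairs, were chosen after seeing the data. Of 426 differences, 15 changed sign under an alternative, none with an unadjusted p under 0.05, and the cause was not tested. For limited minus water these were Gria3 probe set 2 with array weights (-0.013), with the 5 arrays apart on the second component left out (-0.017), with the first component (-0.0089) or cortical markers (-0.072) as a covariate, Gria2 probe set 2 with array weights (-0.0029), with the 5 arrays left out (-0.035) and with cortical markers (-0.010), Grik2 with the 3 prime minus 5 prime signal (0.010), and Gria4 probe set 2 as the mean of its gene (0.0059). For limited minus continuous they were Gria4 probe set 1 with array weights (0.026) and with the 5 arrays left out (0.013), and Grik1 (0.030) and Grik5 (0.031) with the 3 prime minus 5 prime signal as a covariate. For continuous minus water they were Gria2 probe set 2 (-0.023) and Grik4 (-0.0039) with the 5 arrays left out. A single left-out array moved 26 of the 33 differences by more than 1.5 times. Leaving out single arrays gave limited minus water from -0.033 to 0.037 for Gria3 probe set 2, from -0.010 to 0.044 for Gria2 probe set 2 and from -0.029 to 0.021 for Grik2, and limited minus continuous from -0.0595 to 0.0099 for Gria3 probe set 1, -0.032 to 0.0071 for Gria4 probe set 1 and -0.053 to 0.0084 for Grik5. Grik1 has no value with the dimmest 50 percent left out. The 1 gene pair that passed became 0 with the first component taken out and 2 with the second probe sets of Gria2, Gria3 and Gria4 (Gria1 with Gria3, and Gria2 with Grik2). Precision is limited by the number of arrays.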
